A study of Mus musculus with 30 samples.

Results

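The collagen genes were taken by name: every probe whose gene symbol in the hypothalamus files began with Col, a number, the letter a and a number. The rule found 85 of the 41174 probes that are not controls. Of these, 81 probes of 41 genes measured collagen chains, and the 4 probes of Col4a3bp were set aside because that gene codes for a ceramide transfer protein. The symbol alone decided which probes were members and no measured value entered the rule, though it was set with earlier results of these data known. Another 2 probes outside the rule carry older symbols of genes now named as collagens and were not used.

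The 30 arrays came from adult male mice on a C57Bl/6J background, either Per3-/-, which lack a functional PER3 protein of the circadian clock, or their wild-type (WT) littermates. All of them had lived through 17 cycles of 3.5 h light and 3.5 h dark before tissue was taken. Whole eyes were measured in 7 WT and 7 Per3-/- mice, and blocks of the hypothalamus around the optic chiasm in 8 of each, each array holding the RNA of 1 tissue of 1 mouse. The knockout is present in every cell of these mice, and both genotypes went through the same light regime, so no group stands for an ordinary light-dark cycle.

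Collagens are proteins of 3 chains wound into a triple helix, in which glycine recurs at regular steps of 3 residues. Fibrillar collagens such as types I, II, III and V build the tough fibres of sclera, cornea and other connective tissue, and type II is also the main collagen of cartilage and of the vitreous. Type IV chains form the net of basement membranes, type VIII forms the lattice under the corneal endothelium, and FACIT collagens sit on the surface of fibrils. Transmembrane collagens such as types XVII and XXV span the cell membrane. In brain tissue, collagens are best known from the meninges, from vessel walls and from the stroma of the choroid plexus.

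The repeat could be read in the probes themselves. A search of the sequences of all 41174 probes for glycine codons (GGN) at steps of 3 codons, in any frame with at least 6 such codons, found 3 probes, and all 3 were collagens. They are shown because each lies in the part of the message that codes for the triple helix, and because each gave another tissue difference than a second probe of its gene. The capitals mark the glycine codons, and positions are on mm9.
Col11a2, chr17:34189287-34189453, plus strand: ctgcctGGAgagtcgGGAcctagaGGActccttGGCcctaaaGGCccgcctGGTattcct
Col5a1, chr2:27842243-27844666, plus strand: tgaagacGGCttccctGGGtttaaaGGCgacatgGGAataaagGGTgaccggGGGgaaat
Col5a3, chr9:20590066-20590795, minus strand: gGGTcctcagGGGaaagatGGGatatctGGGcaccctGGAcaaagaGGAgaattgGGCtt
Each probe is 60 bases long but spans 167, 2424 and 730 bases of the genome in that order, so it runs across at least 1 intron.

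Levels below are log2 signals relative to the 75th percentile of the same array, so a probe at 0 was as bright as that percentile. A level can be compared for 1 probe between samples, and not between probes. Where a gene had several probes, the one of highest mean signal over all 30 arrays is reported unless another is named. Of the 81 collagen probes, 61 were well above background on every eye array and 50 on every hypothalamus array, while 8 were well above background on no array. Markers of retina (6 of 6 genes) and lens (5 of 5) were higher in the WT eye, and 7 of 8 hypothalamic markers, among them Avp, Oxt and Hcrt, were higher in the WT hypothalamus. The eye also held skeletal muscle (10 of 10 markers higher) and ocular surface epithelium (8 of 8). In the hypothalamic blocks, the mean of 7 anterior pituitary markers stood at 5.33 in Per3-/- mouse 1 and 0.45 in WT mouse 5, against -3.21 to -2.0 in the other mice, so results are also given without these mice where they changed. The 1 probe for Per3 lay at -4.24 to -3.61 in the hypothalamus of Per3-/- mice and at -3.82 to -3.32 in WT (difference -0.51 ± 0.09 SE, limma adjusted p = 0.0678). The targeting left a longer transcript of the gene in place, so this probe does not check the labels.

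Most collagens were far higher in the eye than in the hypothalamus. In WT mice, 56 of the 81 collagen probes were at least 2-fold higher in the eye at an adjusted p under 0.05, where 25.8% of all probes were, and 4 were higher in the hypothalamus, where 18.8% of all probes were. By gene, 33 of 41 were higher in the eye, 2 were higher in the hypothalamus (Col25a1 and Col9a2) and 6 were not called. In 33 genes every WT eye lay above every WT hypothalamus, a count for which no share over all probes was taken. The median difference over the 81 probes was 2.07 on the log2 scale, against 0.11 over all probes of the array. Because these are bulk tissues, more cells of a collagen-producing type and more RNA per cell cannot be told apart, and since each tissue had its own slides, tissue and slide cannot be told apart either.

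Per3-/- mice gave the same counts, with 56 probes higher in the eye (25.5% of all probes) and 4 higher in the hypothalamus (18.7%). The median difference was 1.89 in Per3-/- mice. By quantile normalization over all arrays the split in WT was 49 and 6 collagen probes, where that of all probes turned from 10624 higher in the eye and 7736 higher in the hypothalamus to 8371 and 9243. The plot of all 41 genes by class shows the means of the 4 groups side by side.

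**Figure D1:**
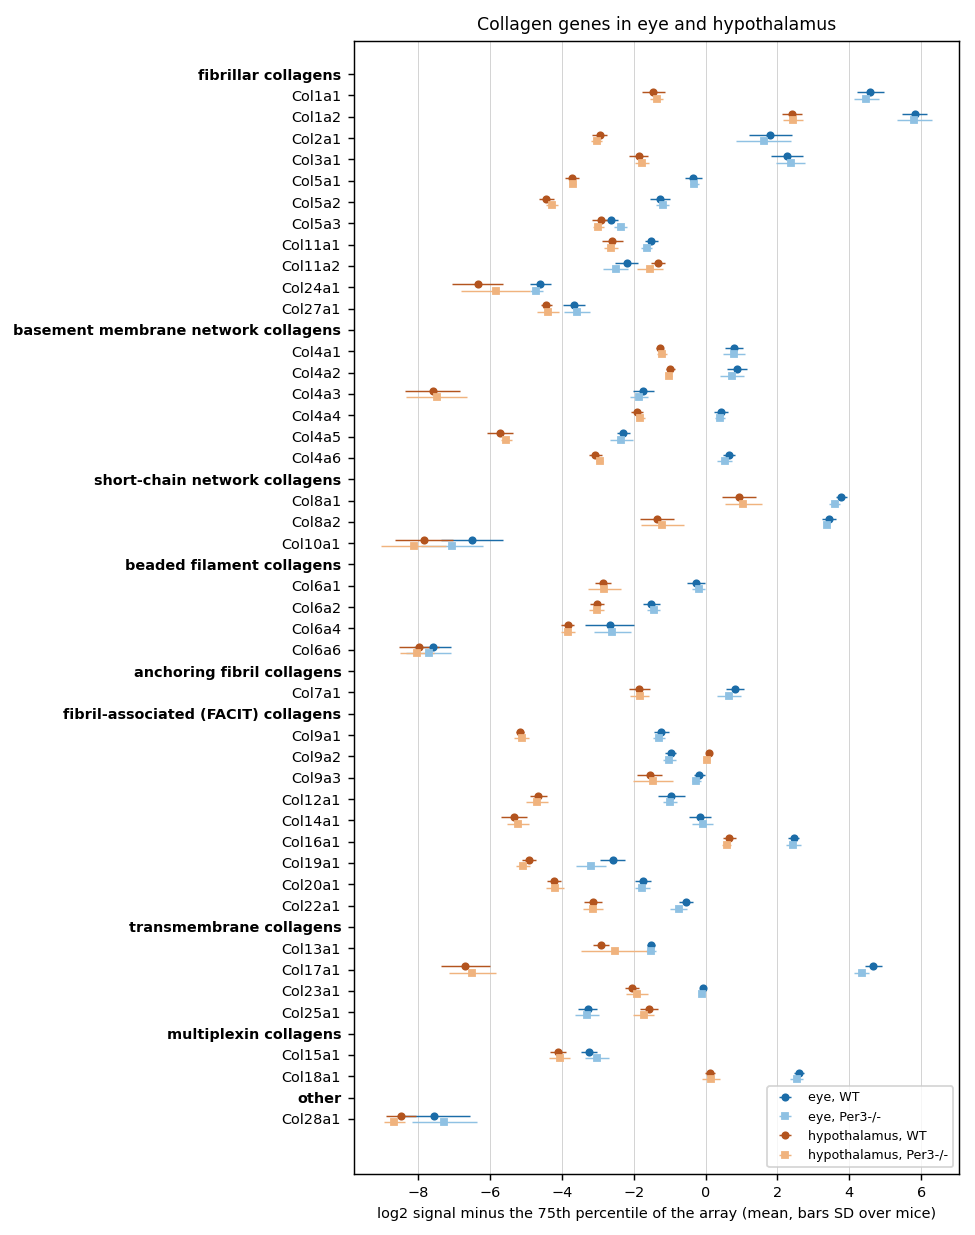
Level of each collagen gene (1 probe per gene) as log2 signal minus the 75th percentile of its array, by collagen class, in WT (circles) and Per3-/- (squares) eye (blue, 7 mice each) and hypothalamus (brown, 8 mice each); points are means and bars SD over mice. The eye lies to the right of the hypothalamus for nearly every gene except Col25a1, Col9a2 and Col11a2, and the genotypes lie on top of each other.

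Among the 11 fibrillar genes, 8 were higher in the WT eye, none in the hypothalamus, and the median difference was 3.17. Col1a1, a chain of type I collagen, lay between 4.28 and 5.31 in WT eyes (median 4.41) and between -1.85 and -1.0 in WT hypothalami (median -1.55). No eye came near any hypothalamus, and the difference was 6.04 ± 0.15 (SE), or 66.0-fold (limma adjusted p = 1.46e-24). Col1a2, the other chain of type I, differed by 3.42 ± 0.17. Col3a1, the chain of type III collagen in soft connective tissue, differed by 4.13 ± 0.16. In the eye it ranged from 1.70 to 3.04 and in the hypothalamus from -2.10 to -1.48. Col5a1, which starts fibril assembly, differed by 3.37 ± 0.08 and Col5a2 by 3.17 ± 0.10. The genes not called were Col5a3 (0.30 ± 0.10), Col27a1 (0.76 ± 0.14) and Col11a2, all of which stayed under 2-fold.

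Col2a1, the type II chain, lay between 1.07 and 2.97 in WT eyes (median 1.76) and between -3.22 and -2.65 in WT hypothalami (median -2.98), a difference of 4.75 ± 0.24 or 26.9-fold. A second probe that shares 40 of its 60 bases gave 5.59 ± 0.12. That probe and the main one for Col1a1 are each printed 10 times on an array, which allowed error within an array to be set beside the spread between mice. In the eye, the median SD between the spots of an array was 0.069 for Col1a1 and 0.055 for the second Col2a1 probe, while the SD between mice of a genotype was 0.354 and 0.305. In the hypothalamus the spots of Col1a1 had a median SD of 0.059 and the mice 0.259. For the second Col2a1 probe, which is dim there, they were 0.133 between spots and 0.165 between mice. The value of a mouse averages 9 or 10 spots, so its error within an array is smaller than the SD between single spots. The spread of Col1a1 in both tissues and of Col2a1 in the eye was several times even that of single spots.

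The triple-helix probes shown above differed from the other probe of their gene. For Col11a2, the helix probe was higher in the eye by 2.42 ± 0.16, with -3.51 to -2.62 in WT eyes and -6.00 to -5.15 in WT hypothalami. The probe farther downstream, at chr17:34202998-34203057, went the other way by -0.87 ± 0.15, with -2.79 to -1.94 in eyes and -1.67 to -1.06 in hypothalami. For Col5a1 the helix probe differed by 0.09 ± 0.14, within its error, against the 3.37 of the other. For Col5a3 it lay at -0.41 ± 0.21 and was well above background on only 1 of 7 WT eye arrays. Over all genes, 28 had more than 1 probe: in 13 of them every probe was called in the same direction, in 12 some were called and some not, and in 3 none was. No gene had probes called in opposite directions, since the Col11a2 probe that was lower in the eye stayed under 2-fold.

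All 6 type IV genes were higher in the WT eye, with differences from 1.85 to 5.85. Col4a1 and Col4a2, whose chains form the net found in nearly all basement membranes, differed least. Col4a1 lay between 0.41 and 1.15 in WT eyes (median 0.76) and between -1.44 and -1.14 in WT hypothalami (median -1.28), a difference of 2.07 ± 0.11 or 4.21-fold. Col4a2 differed by 1.85 ± 0.11. Col4a3, which with Col4a4 and Col4a5 forms a second net in kidney, lung and eye, lay between -2.18 and -1.30 in WT eyes and did not reach the background limit in any WT hypothalamus. It was at least 27.1-fold higher in the WT eye (limma adjusted p = 7.29e-17). Col4a6, a chain of yet another net, differed by 3.72 ± 0.09 and Col4a5 by 3.43 ± 0.13. The Col4a4 probes disagreed in size, at 2.34 ± 0.08 and 6.06 ± 0.18. The first probe read 0.12 to 0.70 in WT eyes and -2.13 to -1.74 in WT hypothalami. The second read 0.26 to 0.71 in WT eyes and -5.98 to -5.18 in WT hypothalami.

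Among the short-chain, beaded-filament and anchoring types, 7 of 8 genes were higher in the WT eye. Col8a2, a chain of the lattice under the corneal endothelium, lay between 3.18 and 3.68 in WT eyes and between -1.87 and -0.58 in WT hypothalami, a difference of 4.80 ± 0.20 or 27.8-fold. Its partner Col8a1 differed by 2.86 ± 0.19. Col7a1, which anchors epithelium to the stroma beneath it, differed by 2.66 ± 0.14. Of the type VI chains, which form beaded filaments around cells, Col6a1 differed by 2.60 ± 0.15 and Col6a2 by 1.51 ± 0.10, while Col6a6 was well above background on no array. Col10a1, known from cartilage that turns to bone, was well above background on 3 of 7 WT eye arrays and 0 of 8 WT hypothalamus arrays. It was at least 1.0-fold higher in the WT eye, and its fitted difference of 1.34 ± 0.42 left the call when background was corrected another way (0.23, adjusted p = 0.51) or arrays were quantile normalized (0.65, adjusted p = 0.20).

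Of 9 FACIT genes, 8 were higher in the WT eye. Col14a1, which sits on type I fibrils, lay between -0.60 and 0.44 in eyes and between -5.84 and -4.85 in hypothalami, 36.0-fold apart (5.17 ± 0.16). Col9a1, a chain that decorates type II fibrils in vitreous and cartilage, differed by 3.92 ± 0.09, and Col12a1, another partner of type I fibrils, by 3.70 ± 0.14. Col9a2 ran against its partner chain. It lay between -1.19 and -0.74 in WT eyes and between 0.00 and 0.17 in WT hypothalami, so it was 2.11-fold higher in the hypothalamus (-1.08 ± 0.07, limma adjusted p = 5.64e-15). Col9a3, the last chain of type IX, differed by 1.39 ± 0.17 in favour of the eye.

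The transmembrane collagens differed in both directions. Col17a1, part of the hemidesmosomes that fix epithelial cells to their basement membrane, lay between 4.40 and 5.06 in WT eyes and between -7.74 and -5.71 in WT hypothalami, where 2 of 8 arrays were well above background. The fitted difference of 11.35 ± 0.25 therefore rests mostly on hypothalamus signals that were not above background. Its second probe was well above background on no hypothalamus array, and was at least 154-fold higher in the WT eye and at least 142-fold higher in the Per3-/- eye. Markers of ocular surface epithelium, all higher in the eye, had a median difference of 8.10, and the part of that epithelium in the Col17a1 value was not tested. Col25a1, a membrane collagen of neurons, was higher in the hypothalamus by all 3 of its probes that were above background anywhere. Its reported probe lay between -3.60 and -2.90 in WT eyes and between -2.03 and -1.13 in WT hypothalami (-1.71 ± 0.14, 3.27-fold). A probe at chr3:130298855-130298914 lay between -2.05 and -1.65 in WT hypothalami and was well above background on no eye array, which made it at least 24.5-fold higher in the WT hypothalamus and at least 22.2-fold in the Per3-/- hypothalamus. Col23a1 (1.99 ± 0.10) and Col13a1 (1.40 ± 0.25) were higher in the eye. Of the multiplexins, which are cut to release fragments such as endostatin, Col18a1 differed by 2.50 ± 0.09, while Col15a1 (0.86 ± 0.14) stayed under 2-fold.

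**Figure D2:**
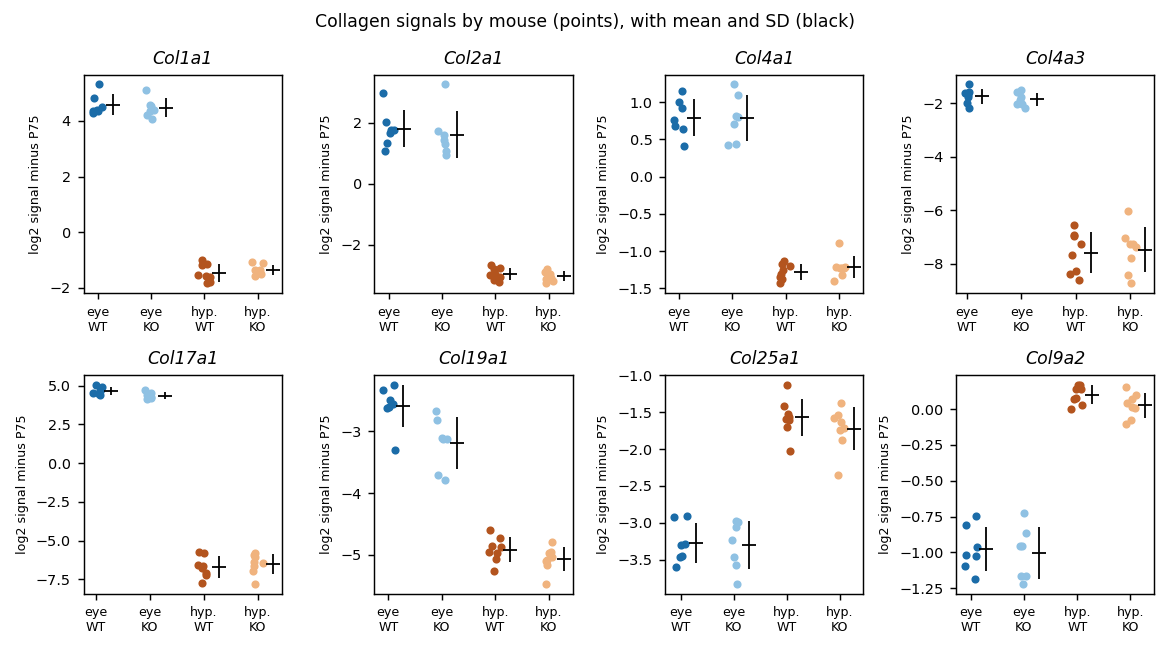
Level of 8 collagen genes in each mouse as log2 signal minus the 75th percentile (P75) of its array, for eye and hypothalamus (hyp.) of WT and Per3-/- (KO) mice; coloured points are mice, and black marks the mean with bars of 1 SD. For the first 6 genes every eye lies above every hypothalamus, with about 6 units between the tissues for Col1a1, while Col25a1 and Col9a2 lie higher in the hypothalamus.

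Many genes for proteins that fold, cut, crosslink and bind collagen were also higher in the WT eye, beside 25.8% of all probes higher there, 18.8% higher in the WT hypothalamus and a median difference of 0.11 over all probes. Of 27 enzymes and chaperones of collagen assembly, 16 were higher in the WT eye and 2 (P4ha3 and Mia3) in the hypothalamus, with a median difference of 1.57. Serpinh1, the chaperone of procollagen, differed by 3.34, and Loxl2, which crosslinks fibrils, by 3.31. Of 14 matrix proteins that bind fibrils, 13 were higher in the eye, with a median of 2.78. Lum, a corneal proteoglycan, differed by 5.97, and the exception was Sparc (-2.18), which binds collagen and is made by astrocytes. Of 9 collagenases and inhibitors, 7 were higher in the eye, with Timp2 (-1.82) higher in the hypothalamus. Of 10 collagen receptors, 6 were higher in the eye and Lair1, an inhibitory receptor of immune cells, in the hypothalamus (-1.12). Of 11 partners of type IV in basement membranes, 6 were higher in the eye and Agrn (-1.80) in the hypothalamus.

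No collagen probe passed the test between genotypes in either tissue. In the eye, 0 of 81 probes had a limma adjusted p under 0.05, where 8 of all 41174 probes (0.0194%) did, and the methods' t-test also called 0 after Benjamini-Hochberg adjustment. In the hypothalamus 0 of 81 were called, where 17 of all probes (0.0413%) were. The median difference of the 81 probes, Per3-/- minus WT, was -0.04 for eyes and 0.02 for hypothalami, with a median SE of 0.156 and 0.133. Col1a1 differed by -0.11 ± 0.18 in the eye and by 0.10 ± 0.12 in the hypothalamus. Col2a1 differed by -0.19 ± 0.35 and -0.08 ± 0.09, and Col4a1 by -0.01 ± 0.14 and 0.06 ± 0.07. For no gene did the ranges of the genotypes separate in either tissue, and the share over all probes was not taken.

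At an unadjusted p under 0.05 there were 4 collagen probes in the eye (1.8% of all probes) and 3 in the hypothalamus (2.81%). Both leading probes in the eye were for Col19a1, a FACIT chain found in basement membrane zones of muscle and in some neurons. The reported one lay between -3.30 and -2.24 in WT (median -2.55) and between -3.78 and -2.67 in Per3-/- mice (median -3.12). The ranges overlapped, and the difference was -0.60 ± 0.19 (limma adjusted p = 1.0). A second probe gave -0.47 ± 0.16 and a dimmer one -0.48 ± 0.37. Leaving out any 1 mouse kept the reported probe between -0.72 and -0.50, and with background corrected by normexp it was -0.24. The epithelial Col17a1 lay between 4.40 and 5.06 in WT and between 4.12 and 4.73 in Per3-/- eyes (-0.32 ± 0.12), and its second probe at -0.20 ± 0.13. Col5a3 was higher in Per3-/- eyes by 0.27 ± 0.10, with -2.84 to -2.37 in WT and -2.67 to -2.17 in Per3-/-.

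Mice of the same number tended to deviate together in the eye, where each such pair also shared a slide. With the number as a block, 8 collagen probes in place of 4 had an unadjusted p under 0.05 by limma. Of these 0 were called, where 1 of all probes was. The share of all probes at the unadjusted threshold under the block is not given here, so whether the rise was particular to collagens was not tested. Under the block Col19a1 differed by -0.66 (limma adjusted p = 0.999).

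In the hypothalamus, the reported probes of lowest p were Col9a2 (-0.07 ± 0.04), Col5a2 (0.16 ± 0.09) and Col4a6 (0.12 ± 0.07), with adjusted p-values of 0.989 by limma. None of these had an unadjusted p under 0.05 by limma. The 3 probes that did were second probes of Col4a6, Col4a4 and Col15a1. That of Col4a6 was well above background on 1 of 16 arrays, Per3-/- mouse 6, where it stood at -1.83 against -8.41 to -6.60 in the other 15 mice. The remaining Col4a6 probes in that mouse stood at -3.11 and -2.70, close to the other mice. The dim Col4a6 probe differed by 1.47 ± 0.64, and by 0.83 to 1.61 with each mouse left out. In 4 of these 16 omissions its unadjusted limma p rose above 0.05, so the difference did not rest on mouse 6 alone. The Col15a1 probe was well above background on 1 of 16 arrays. The Col4a4 probe differed by 0.44 ± 0.20, and without Per3-/- mouse 1 by 0.32, which was no longer under that threshold. Mouse 1 was not alone in this. With each mouse left out, the unadjusted limma p rose above 0.05 in 8 of 16 omissions for Col4a4 and in 10 of 16 for Col15a1.

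The genotype effect was also compared between the tissues. No collagen probe of 81 was called for a difference of genotype effects between eye and hypothalamus, where 2 of all probes (0.00486%) were. At an unadjusted p under 0.05 by limma, 1 of 81 was positive and 2 were negative, beside 488 positive and 441 negative of all 41174 probes. They were of Col5a3 (0.32 ± 0.14), Col19a1 (-0.44 ± 0.21) and Col4a4 (-0.60 ± 0.25), each with a limma adjusted p of 1.0. Among the 71 genes of the assembly, binding, collagenase, receptor and basement membrane lists, 0 were called between genotypes in either tissue. The lowest unadjusted p among the crosslinking enzymes in the eye was that of Lox, which lay higher in Per3-/- eyes by 0.26.

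**Figure D3:**
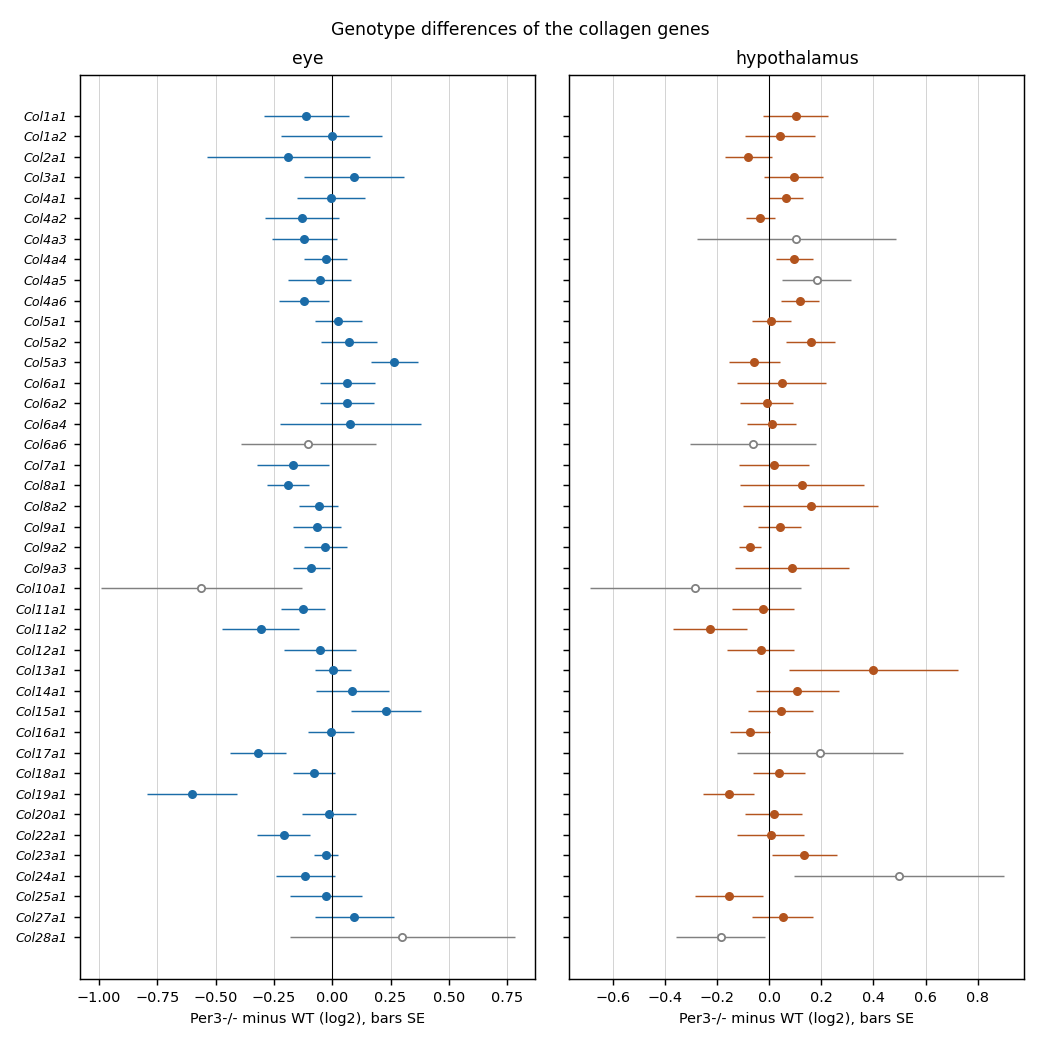
Difference in level between Per3-/- and WT mice (log2) for each of the 41 collagen genes in the eye and in the hypothalamus, with bars of 1 SE; open grey points are probes that at least 1 array of that tissue did not measure above background. The points lie around 0 in both tissues, and Col19a1 stands farthest to the left in the eye at -0.60.

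The median spread between mice was larger for collagen probes than for all probes above background, without matching for signal level. Over the 61 collagen probes above background on every eye array, the median SD between mice of a genotype was 0.264, against 0.183 over 27934 such probes of the array. In the hypothalamus it was 0.239 over 50 collagen probes against 0.131 over 27177. There, 12 of 50 collagen probes lay above the 90th percentile of all probes, and in the eye 4 of 61 did. By definition 10% of all probes lie there, so only the hypothalamus held more than that share. Among reported probes the largest SD in the eye belonged to Col28a1 (0.959), Col10a1 (0.861) and Col2a1 (0.695), and only Col2a1 was above background throughout. The Col2a1 value belongs to 1 probe: it read highest in mouse 3 of either genotype (2.97 in WT and 3.26 in Per3-/-), whereas the overlapping probe had an SD of 0.305 and put these mice low, at 0.17 and 0.23. In the hypothalamus they were Col10a1 (0.854), Col24a1 (0.850) and Col4a3 (0.805), and none of them was above background throughout. No collagen was set apart by slide in the hypothalamus (0 of 81 called, where 1.37% of all probes were). At an unadjusted p under 0.05 by limma there were 15, where 6866 of all 41174 probes were. Without WT mouse 7 the count called was 4 and without Per3-/- mouse 1 it was 1. In the eye 6 of 81 differed between slides, where 15.5% of all probes did. They included Col6a4, whose slide means ran from -3.29 to -1.93, and a second probe of Col3a1, from -5.34 to -3.80, while the reported Col3a1 probe had slide means from 2.19 to 2.48.

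Some chains rose and fell together from mouse to mouse. Over 16 relations of deviations from the genotype mean, 5 had an adjusted permutation p under 0.05. The permutations treated the mice of a genotype as independent and did not keep same-numbered eyes together. Because same-numbered eyes tended to deviate together, the permutation p-values in the eye may be too small. The closest was that of Col4a1 with Col4a2 in the eye, whose chains join in 1 molecule: over 14 mice, r = 0.958 (two-sided permutation p = 1e-05, the smallest that 100000 resamples can give, adjusted p = 0.00016) and rho = 0.952 (permutation p = 2e-05, adjusted 0.00032). It was 0.927 without the 2 mice farthest from the median of Col4a1 and 0.964 with slide means removed. In the hypothalamus over 16 mice it was 0.533 (permutation p = 0.0355, adjusted p = 0.0948), rho was 0.235 (permutation p = 0.391, adjusted 0.633), and r was 0.247 without the 2 farthest mice.

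The start sites of these genes face each other. They are printed because the genes that share the window also moved together in the eye. Both windows run from 250 bases before to 50 bases after a start in RefSeq (GRCm38.p6), and the capitals mark the 78 bases, chr8:11312777-11312854, that lie in both, read on opposite strands.
Col4a1, chr8:11312777-11313076, minus strand: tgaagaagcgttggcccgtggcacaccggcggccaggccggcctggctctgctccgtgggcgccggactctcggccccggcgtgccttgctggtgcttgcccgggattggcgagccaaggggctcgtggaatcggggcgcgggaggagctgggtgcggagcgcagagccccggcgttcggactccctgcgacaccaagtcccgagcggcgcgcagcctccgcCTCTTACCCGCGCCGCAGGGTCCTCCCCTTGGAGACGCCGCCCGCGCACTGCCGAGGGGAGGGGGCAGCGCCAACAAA
Col4a2, chr8:11312555-11312854, plus strand: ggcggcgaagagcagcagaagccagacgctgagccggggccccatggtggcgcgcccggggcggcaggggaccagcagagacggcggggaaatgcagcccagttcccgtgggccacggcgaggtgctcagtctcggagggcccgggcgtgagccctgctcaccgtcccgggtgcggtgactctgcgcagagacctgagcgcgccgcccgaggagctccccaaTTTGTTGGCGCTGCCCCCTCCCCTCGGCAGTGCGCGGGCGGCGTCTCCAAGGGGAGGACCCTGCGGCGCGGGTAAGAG
RefSeq windows were given for 33 of the 41 genes (36 windows). On either strand, GGGCGG stood in 22 of the 36 (61.1%) and in 35.7% of all 32851 windows of the same length, and CCAAT in 13 of 36 (36.1%) and in 37.4% of all. CACGTG, the E-box that clock proteins bind, stood in 0 of 36 and in 7.15% of all. Both windows printed here hold GGGCGG and CCAAT. None of these motifs contains another, and a match only describes the window.

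Type I chains moved together in the eye, where Col1a1 followed Col1a2 over 14 mice with r = 0.777 (permutation p = 0.00553, adjusted p = 0.0253) and rho = 0.886 (permutation p = 0.00017, adjusted 0.00136). Without the 2 mice farthest from the median r was 0.694 (permutation p = 0.0119, adjusted p = 0.0632). In the hypothalamus the same pair gave r = 0.256 over 16 mice (permutation p = 0.362, adjusted p = 0.578), and 0.683 with slide means removed (adjusted permutation p = 0.0443). Col1a1 also followed the basement membrane gene Col4a1 in the eye, with r = 0.767 (permutation p = 0.00154, adjusted p = 0.0123) and rho = 0.829 (permutation p = 0.00101, adjusted 0.00539), and with 0.777 without the 2 farthest mice. In the hypothalamus that pair stood at -0.03 (adjusted permutation p = 0.920), and whether the tissues differ was not tested. There, Col1a1 followed Col3a1 with r = 0.700 (permutation p = 0.00789, adjusted p = 0.0253) and rho = 0.721 (permutation p = 0.00609, adjusted 0.0244). It also followed the mean of 10 markers of meningeal and perivascular fibroblasts with r = 0.694 (permutation p = 0.00788, adjusted p = 0.0253) and rho = 0.553 (permutation p = 0.0475, adjusted 0.109). Both rested on the 2 farthest mice, without which r was 0.493 and 0.365. Col1a1 was not related to skeletal muscle markers in the eye at the threshold (r = -0.451, permutation p = 0.127, adjusted p = 0.289).

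**Figure D4:**
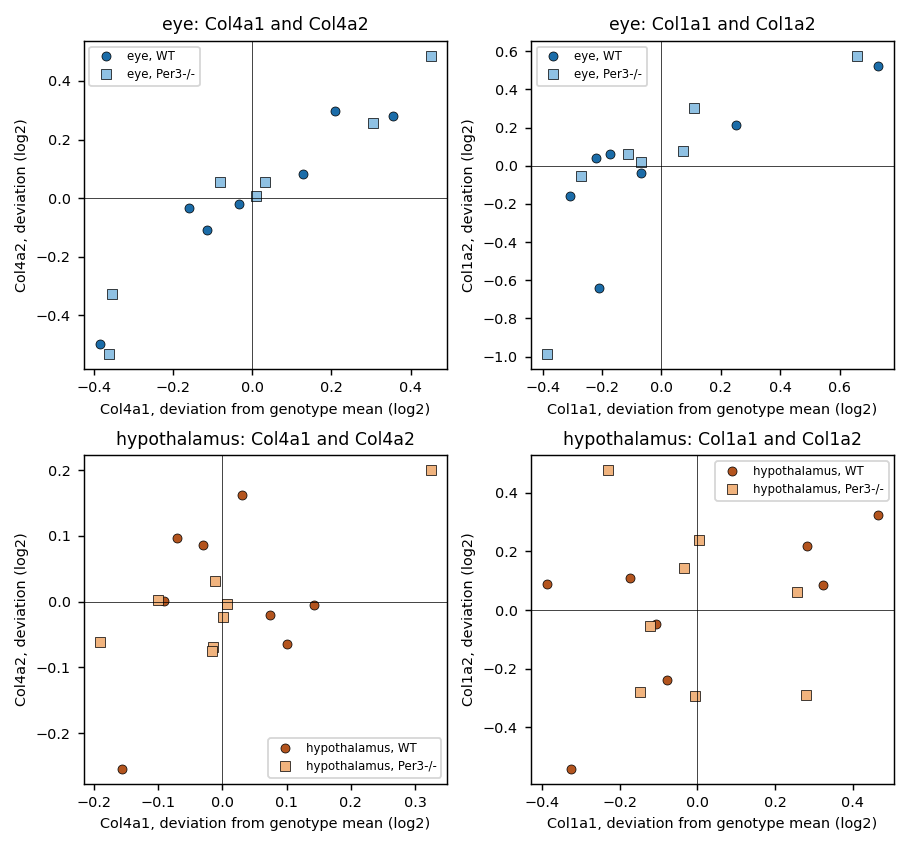
Deviation of each mouse from its genotype mean (log2) for Col4a1 against Col4a2 (left) and Col1a1 against Col1a2 (right), in the eye (top, 14 mice) and the hypothalamus (bottom, 16 mice); circles are WT and squares Per3-/-. In the eye Col4a1 and Col4a2 lie along 1 line (r = 0.958), and in the hypothalamus 1 Per3-/- mouse stands high for both.

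In the hypothalamic blocks, 3 collagens tracked the markers of the choroid plexus, the tissue that makes cerebrospinal fluid. The mean of 7 such markers, among them Ttr, Kl and Aqp1, was -2.72 to -1.66 in 9 mice and -0.72 to 1.02 in the other 7, and each set held 4 Per3-/- mice. Col8a1 had a median of 0.62 in the 9 mice (0.35 to 0.88) and of 1.54 in the 7 (0.87 to 1.72). Col8a2 had a median of -1.66 in the 9 (-1.94 to -1.37) and of -0.58 in the 7 (-1.42 to -0.47). Col9a3 had a median of -1.84 in the 9 (-2.03 to -1.64) and of -1.06 in the 7 (-1.73 to -0.74). Within the 7 mice the correlations with the marker mean were 0.956, 0.992 and 0.967, and within the 9 they were -0.21, -0.23 and -0.06, so the relation lay among the blocks with more of these markers. Because of the gap between the sets, no coefficient over all 16 mice is given. These 3 were the relations that passed among 402 between a collagen gene and a marker list in either tissue (adjusted permutation p = 0.0134 each), a screen chosen after the data had been seen. With slide means removed their adjusted permutation p-values were between 0.208 and 0.347. Their SDs between mice, 0.497, 0.544 and 0.459, were above the 90th percentile of all probes (0.291), and the part of choroid plexus in the genotype comparison was not tested.

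**Figure D5:**
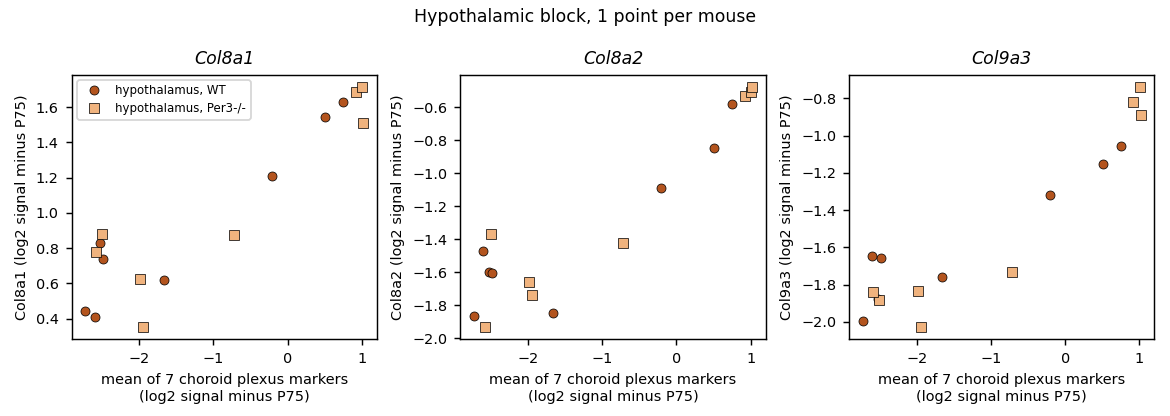
Level of Col8a1, Col8a2 and Col9a3 in the hypothalamic block against the mean of 7 choroid plexus markers in the same block, both as log2 signal minus the 75th percentile (P75), 1 point per mouse (8 WT circles, 8 Per3-/- squares). Among the 7 mice with a marker mean of -0.72 or more the genes rise with the markers (r from 0.956 to 0.992), and among the 9 mice at -1.66 or less they do not.

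Pituitary markers marked another block. In Per3-/- mouse 1, where those markers were highest, Col13a1, a membrane collagen of neuromuscular junctions, stood at -0.19, against -3.17 to -2.54 in the other 15 mice. Col4a1 stood at -0.89 and Col4a2 at -0.82 there, each the highest of its group. The highest r of a collagen gene with the pituitary markers over all mice was 0.931, and no collagen passed the adjusted permutation test against them. That test could hardly pass, because permutation within a genotype often returns 1 extreme mouse to its own place. The part of pituitary tissue in these values was not tested. Without Per3-/- mouse 1 and WT mouse 5, 56 collagen probes were higher in the WT eye, 57 in the Per3-/- eye and 4 in either hypothalamus, and 0 were called between genotypes.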

How the data were processed

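RNA from 14 whole eyes and 16 hypothalamic blocks was hybridised to 1-colour Agilent arrays with 60-base probes. The deposited processed intensity of each spot was background-subtracted by the authors with Agilent Feature Extraction, on a linear scale and without normalization between arrays. The log2 value table deposited by the authors is relative to the 75th percentile and to each probe's median over a tissue, as the values show (correlation with the values used here at least 0.9998). The mm9 positions and the marks for background, uneven and outlier spots are those of the deposited files.

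Here each spot's intensity was taken to log2 and set against the 75th percentile of its array (1192 to 1736 in the eye, 1440 to 2253 in the hypothalamus). Spots that carried a mark for unevenness or for being an outlier were dropped, at most 91 on any array, and the spots of a probe were averaged. Arrays carry no read depth, and their number limits the precision. Per array, 68.0% to 80.7% of probes were well above background. No collagen probe was saturated. "At least" folds set the bright group's mean against, per array of the dim group, the higher of the probe's signal and the lowest signal well above background.

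Groups were compared with limma 3.58.1 in R 4.3.3 over all 41174 probes with Benjamini-Hochberg adjustment, by genotype within each tissue, by slide with genotype as a term, and by tissue with genotype and replicate number as a random block (estimated correlation 0.0583), although no source used here states that same-numbered eyes and hypothalami came from the same mouse. Correlations used deviations from genotype means and 100000 permutations within genotype. The fits were tested on simulated data. Alternatives were quantile normalization, normexp background (offset 50), a filter on background, slide or replicate number as a block, the deposited log2 values, the methods' t-test and leaving out each mouse. Python 3.11.15, numpy 2.4.6, pandas 2.3.3, scipy 1.17.1 and matplotlib were also used.

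Same-numbered eyes deviated together, with correlations of deviations from group means from 0.109 to 0.627 over 6 pairs. In the hypothalamus these correlations ran from -0.03 to 0.315 over 8 pairs. Nothing in the labels says what a number shares. Same-numbered arrays of a tissue always lay on the same slide, and the part of the slide in these correlations was not tested. The main genotype fits had no block in either tissue, and the number was a block only where the text says so. Replicates were separate mice. Current names came from accessions for 71 of the 85 probes, from symbols for 13 and from a synonym for 1.

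The genes named were Col1a1, Col2a1, Col4a1, the chains of the relations, the 10 largest tissue differences in each direction among called probes above background throughout the brighter tissue, and in each tissue the 3 lowest p-values between genotypes and the 3 largest SDs; others named were chosen after their values were seen. The members and the gene lists were chosen with earlier results of these data known.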

Additional observations from a re-analysis of the deposited data

Results flagged for a closer look

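Of 84 groups (21 named genes in 4 groups), 7 held a sample that stood far from the rest by Dixon's criterion. For independent groups picked without regard to their values, chance gives about 1 in 20. That rate does not apply here, because some genes were picked for a large SD, which an outlier raises. The groups also share mice. In the eye of Per3-/- mice, Col14a1 stood at 0.563 in mouse 5 (others -0.30 to -0.10), Col1a2 at 4.83 in mouse 8 (others 5.76 to 6.39) and Col2a1 at 3.26 in mouse 3 (others 0.95 to 1.73). In the WT eye, Col19a1 stood at -3.30 in mouse 8 (others -2.61 to -2.24). In each case the same-numbered eye of the other genotype lay at the same end of its own group: Col14a1 at 0.44 in WT mouse 5, Col1a2 at 5.18 in WT mouse 8, Col2a1 at 2.97 in WT mouse 3 and Col19a1 at -3.78 in Per3-/- mouse 8. Each of these pairs shared a slide, and the part of the slide was not tested. The overlapping Col2a1 probe did not show the high level, with Per3-/- mouse 3 the lowest of its group at 0.23 (others 0.32 to 0.89). In the hypothalamus of Per3-/- mouse 1, the mouse with the most pituitary marker signal, Col4a1 stood at -0.89 (others -1.41 to -1.21) and Col4a2 at -0.82 (others -1.09 to -0.99). Col10a1, which is near background, stood at -6.00 in the hypothalamus of Per3-/- mouse 7 (others -8.71 to -7.77).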

How the results depend on the processing

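The counts of 0 between genotypes and for tissue by genotype were 0 under every alternative run, including each mouse left out and the replicate number as a block (0 in either tissue). The correlations of same-numbered arrays were taken within a tissue, so they do not show whether an eye and a hypothalamus came from 1 mouse. Without the block between tissues, 56 and 4 probes were higher in the eye and hypothalamus of either genotype. With each mouse left out, 54 to 57 probes were higher in the WT eye, 4 to 4 in the WT hypothalamus, 51 to 57 in the Per3-/- eye and 3 to 5 in the Per3-/- hypothalamus. By quantile normalization 7 were higher in the Per3-/- hypothalamus, where 9166 of all probes were. Collagen probes that differed between slides numbered 10 (quantile) and 0 (normexp) in the eye, where 6556 and 0 of all probes did. In the hypothalamus they numbered 1 (quantile) and 2 (filter on background), where 583 and 840 of all probes did, or 0 to 4 with each mouse left out. The difference of Col5a2 between genotypes in the hypothalamus turned to -0.0047 by normexp, and that of Col5a3 between tissues in WT to -0.0187 by quantile normalization. The cause was not tested.

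Correlations moved more. Without the 2 farthest mice, r was 0.694 for Col1a1 with Col1a2 and -0.0696 with Col3a1 in the eye, and -0.476 with ocular surface markers. In the hypothalamus it was then 0.493 with Col3a1, -0.208 with Col2a1 and 0.365 with fibroblast markers, and 0.124 for Col2a1 with Col9a1. With slide means removed, Col1a1 in the hypothalamus gave 0.683 with Col1a2, 0.0993 with Col4a1 and -0.324 with Col2a1. By normexp it gave 0.631 with Col3a1, 0.0571 with Col4a1 and 0.649 with fibroblast markers, and Col2a1 with Col9a1 gave 0.198, or -0.639 by quantile normalization. Leaving out Per3-/- mouse 1 and WT mouse 5, an alternative chosen after seeing the data, gave 0.710 with Col3a1, 0.133 with Col4a1 and 0.718 with fibroblast markers. With each mouse left out, r ranged in the eye from 0.720 to 0.818 for Col1a1 with Col1a2 and from -0.293 to 0.222 with ocular surface markers. In the hypothalamus it ranged from 0.608 to 0.854 for Col1a1 with Col3a1, -0.206 to 0.239 with Col4a1, -0.0131 to 0.366 with Col2a1, 0.549 to 0.748 with fibroblast markers and -0.334 to 0.191 with pituitary markers, and from -0.229 to 0.0419 for Col2a1 with Col9a1. Probes below background limit what the arrays could show for Col6a6, Col10a1 and Col28a1.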
